A study of Mus musculus with 2 samples.

Results

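Agbl1 to Agbl5 are the 5 mouse genes of the ATP/GTP binding protein-like family, and they were examined in lists of H3K9me2 peaks from embryonic cortex. The H3K9me2 mark (histone H3 dimethylated at lysine 9) was mapped by immunoprecipitating chromatin and sequencing the recovered DNA. The members were chosen by name, with Agbl1 leading because it had already stood out in the wild-type list, and the peaks overlapping each gene body extended by 2 kb were taken from both lists. They are 5 of 21523 protein-coding genes placed, and they held 2 of 743 wild-type peaks and 8 of 6253 transgenic peaks. One library came from wild-type C57BL/6 embryos and the other from C57BL/6 embryos carrying TBC1D3, a hominoid gene that mice lack, as a transgene. Both were cortex of embryonic day 15.5. The promoter that drives the transgene and the number of embryos behind each library are not given in the sources used here. The lists hold no expression values, so the tissue was not checked against marker genes. With 1 library per genotype no difference between genotypes was tested, and every interval covers counting error only.

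The Agbl proteins are cytosolic carboxypeptidases, zinc enzymes that remove glutamates from the ends of proteins. Their best known substrate is the polyglutamate side chain that TTLL ligases build on the tails of alpha and beta tubulin in axons, cilia and centrioles, where it tunes how motors and severing enzymes act on the microtubule. Agbl1 (also called CCP4) and Agbl4 (CCP6) shorten long chains, Agbl2 (CCP2) and Agbl3 (CCP3) are also deglutamylases, and Agbl5 (CCP5) removes the glutamate at the branch point. The sixth family member, Agtpbp1 (CCP1), is the gene lost in the Purkinje cell degeneration mouse. H3K9me2 is a mark of repressed chromatin placed largely by G9a and GLP, and the series title pairs G9a with TBC1D3.

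Of the 5 genes, only Agbl1 held wild-type peaks, and only Agbl1 and Agbl4 held transgenic peaks. Agbl1 held 2 peaks in the wild-type library (exact Poisson 95% interval 0.242 to 7.22) and 6 in the transgenic library (2.20 to 13.1). The order of these counts turned under 2 alternatives. With the transgenic list shortened to the 743 peaks of lowest q, the length of the wild-type list, Agbl1 held 1 transgenic peak, and at a fold of at least 5 it held 1 wild-type and 0 transgenic peaks. Agbl4 held 0 (0 to 3.69) and 2 (0.242 to 7.22), and 0 in both at a fold of at least 5. Agbl2, Agbl3 and Agbl5 held 0 peaks in both libraries. Among all protein-coding genes, 0.911% held at least 1 wild-type peak, 5.69% at least 1 transgenic peak and 0.525% a peak of each kind. The members were chosen with these counts known, so their counts of 1 of 5 and 2 of 5 are a description and are not evidence that the family stands apart. The fragment extension was 57 bp in the wild-type call and 111 bp in the transgenic call, and the lists differ in length, so these settings and the genotype cannot be told apart. All 5 genes lie on the plus strand.

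**Figure D1:**
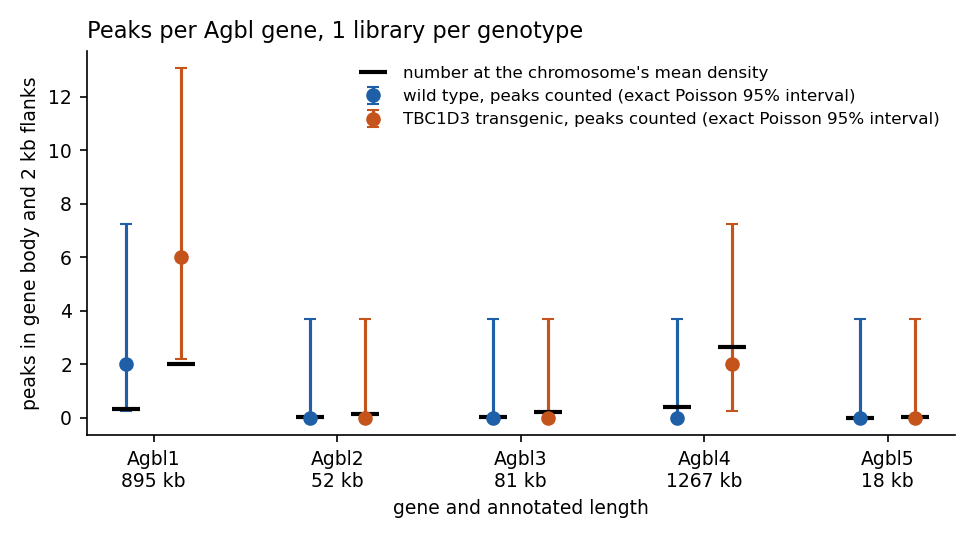
Peaks in each Agbl gene (vertical axis, number in the gene body and 2 kb flanks) for the wild-type and the transgenic library, with exact Poisson 95% intervals as bars and, as black dashes, the number that the mean density of the gene's chromosome gives. Agbl1 is at 2 and 6, Agbl4 at 0 and 2, and the other genes at 0.

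The 5 genes differ widely in length, and both genes with peaks are the long ones. Agbl4 spans 1267 kb on chromosome 4 (110397649 to 111664324, GRCm38) and Agbl1 spans 895 kb on chromosome 7 (76229591 to 77124698). Agbl3 covers 80.5 kb on chromosome 6 (34780432 to 34860939), Agbl2 51.8 kb on chromosome 2 (90782685 to 90834437) and Agbl5 18.0 kb on chromosome 5 (30888639 to 30906666). At the mean density of their chromosomes, the 3 short genes together would hold 0.0417 wild-type and 0.397 transgenic peaks. Their 0 peaks could not be told from that density at this depth. Of the 7442 protein-coding genes between Agbl5 and Agbl3 in length, 0.403% held a wild-type and 4.04% a transgenic peak.

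Agbl1 held more peaks than Agbl4 in each library, but the Poisson intervals of the 2 genes overlap in both and the difference was not tested. For Agbl1, the mean density of chromosome 7 gives 0.322 wild-type and 2.02 transgenic peaks, against 2 and 6 counted. These counts led to the choice of Agbl1, so they are set beside the mean as a description only. For Agbl4, the mean density of chromosome 4 gives 0.389 and 2.64, against 0 and 2 counted. Of the 212 protein-coding genes of 500 to 1500 kb, which include both, 23.1% held a wild-type peak and 84.0% a transgenic peak, with medians of 0 and 2 peaks. At least 2 wild-type peaks were held by 4.25% of these 212 genes and at least 6 transgenic peaks by 7.55%. At most 2 transgenic peaks, the number in Agbl4, were held by 64.2%. Over all protein-coding genes, 19 had at least 2 wild-type peaks (0.0883%), 26 had at least 6 transgenic peaks (0.121%), and 10 met both (0.0465%). Agbl1 is 1 of those 10, and it entered the set through the counts that led to its choice.

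**Figure D2:**
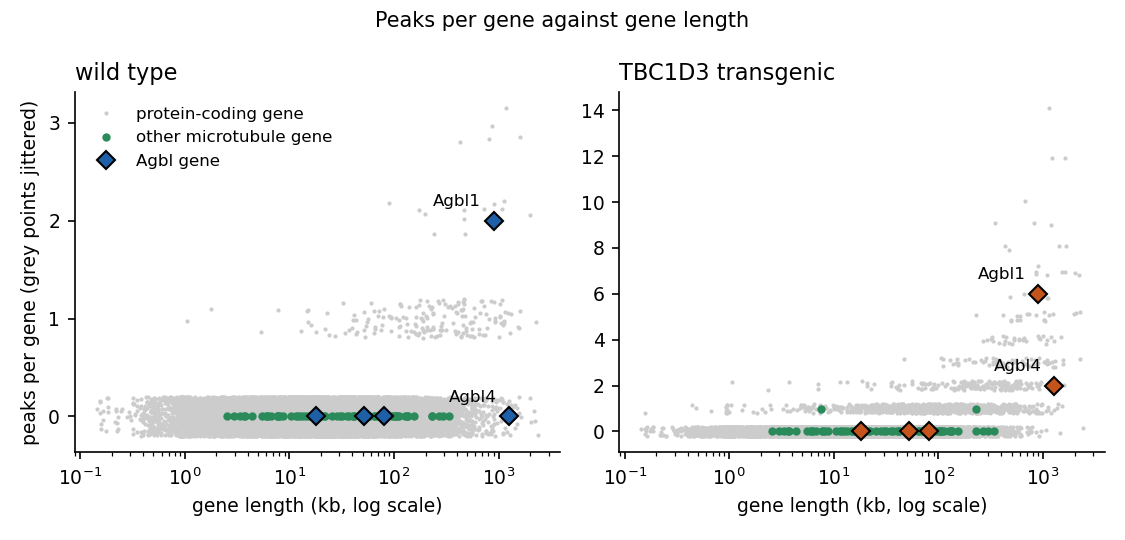
Peaks per protein-coding gene (vertical axis) against gene length (horizontal axis, kb, log scale) in the wild-type (left) and transgenic (right) lists, with Agbl genes as diamonds, other microtubule genes in green and all others in grey, jittered vertically. Agbl1 lies at 2 and 6 peaks and Agbl4 at 0 and 2, while the other 3 Agbl genes lie at 0.

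No peak of either library touched a promoter of the family. The RefSeq table (GRCm38.p6) matched all 5 genes and lists 9 windows for them, each of 250 bases before and 50 after a transcript start, and 0 of the 9 held a wild-type or a transgenic peak. Across all 32851 windows of that table, 2 held a wild-type peak and 19 a transgenic peak (0.00609% and 0.0578%), so a peak at a start was rare for all genes. The 250 bases before the first listed start are shown for the 2 genes with peaks and, as the most CG-rich of the 5, for Agbl5. Capitals mark each CG dinucleotide, and all 3 are plus-strand sequence at chr7:76229637-76229886, chr4:110397448-110397697 and chr5:30888602-30888851.
Agbl1: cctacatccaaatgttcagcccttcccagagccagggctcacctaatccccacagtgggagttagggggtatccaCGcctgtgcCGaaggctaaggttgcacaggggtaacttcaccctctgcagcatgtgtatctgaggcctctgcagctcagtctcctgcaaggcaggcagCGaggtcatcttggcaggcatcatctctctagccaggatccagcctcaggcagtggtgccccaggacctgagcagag
Agbl4: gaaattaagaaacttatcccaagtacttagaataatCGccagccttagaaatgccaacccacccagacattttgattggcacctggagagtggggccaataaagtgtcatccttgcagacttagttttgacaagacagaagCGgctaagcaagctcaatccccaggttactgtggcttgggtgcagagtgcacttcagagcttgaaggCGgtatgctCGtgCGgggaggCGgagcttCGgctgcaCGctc
Agbl5: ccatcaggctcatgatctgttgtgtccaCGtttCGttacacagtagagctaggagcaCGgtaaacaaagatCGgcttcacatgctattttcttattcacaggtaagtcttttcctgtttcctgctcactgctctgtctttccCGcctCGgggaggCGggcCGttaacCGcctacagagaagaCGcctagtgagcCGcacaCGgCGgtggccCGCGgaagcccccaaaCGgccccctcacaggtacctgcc
The Agbl1 stretch held 3 CG dinucleotides, Agbl4 8 and Agbl5 16, and in the stretches not shown Agbl2 held 8 and Agbl3 7. The median over all windows was 6. As many CG dinucleotides or fewer were found in 37.8% of windows for Agbl1, 59.7% for Agbl4 and 76.5% for Agbl5. Agbl1 was the only one of the 5 below the median, although its G and C content of 58.8% was the highest (48.4% to 56.4% in the others). The Agbl1 window lies just inside the annotated gene, as does most of the Agbl5 stretch. The stretches of Agbl2 and Agbl4 run a short way past their gene starts. The nearest wild-type peak lay 17.8 kb from the Agbl1 window and 2896 kb from the Agbl4 window. The nearest transgenic peak lay 27.1 kb and 14.8 kb away. For Agbl5 the distances were 2005 kb and 211 kb.

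The 2 wild-type peaks of Agbl1 were among the better supported peaks of a weak list. The first lay at chromosome 7, 76507728 to 76507789, 278 kb from the gene start. It rested on 8 fragments over a local background of 0.564, a deposited fold enrichment of 5.50. Its deposited −log10 p was 6.81, a value reached by 17 of the 743 wild-type peaks (2.29%), and its q was 0.670. The second lay at 76813858 to 76813915, 584 kb from the gene start. It also rested on 8 fragments, over a background of 0.741, with a fold of 4.95, a −log10 p of 5.93 and a q of 1. A −log10 p of that size or more was listed for 57 wild-type peaks (7.67%). In the wild-type call 8 fragments were scaled to a pileup of 7.61 and scored as the whole number below it. Scored as 8 over the same backgrounds, which were left at the scaled depth, they would have a −log10 p of 8.02 and 7.02. The median wild-type peak held 6 fragments and a fold of 3.90. Neither peak passed a q of 0.05, and the lowest q of the whole wild-type list was 0.136. No transgenic peak passed a q of 0.05 either, as the lowest q of the transgenic list was 0.0673.

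The 6 transgenic peaks of Agbl1 fell into a group near the start and a group near the end. The first 3 lay 27.4, 113 and 284 kb from the gene start, in the first 31.7% of the gene. The last 3 lay 727, 789 and 804 kb from it, beyond 81.2% of the gene. Between the groups was a stretch of 443 kb with 0 transgenic peaks, in which the second wild-type peak lay. The peak nearest the gene start, at 76257040 to 76257150, had the strongest support of the 6. It held 8 fragments, a fold of 4.85, a −log10 p of 6.51 and a q of 0.0673. That q is the lowest of the transgenic list, but other peaks share it, among them the next transgenic peak after Agbl4. A −log10 p of 6.51 or more was listed for 354 transgenic peaks (5.66%). The peak at 76342508 to 76342618 also held 8 fragments, over a background of 1.14, with a fold of 4.21 and a q of 0.0895.

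The other 4 transgenic peaks of Agbl1 ranged, by −log10 p, from better supported than most of their list to near its weak end. Those at 77018136 to 77018274 and 77033457 to 77033567 lay 15.2 kb apart and held 7 fragments each, with folds of 4.03 and 4.26 and q values of 0.132 and 0.0895. A −log10 p as high or higher was listed for 31.9% and 20.5% of transgenic peaks, beside 18.9% for the peak at 76342508. Those at 76513615 to 76513725 and 76956520 to 76956660 held 5 fragments each, the fewest that any transgenic peak held. Both had a fold of 3.02, a −log10 p of 3.26 and a q of 0.363, and 91.7% of transgenic peaks had a −log10 p as high or higher. No peak of Agbl1 overlapped another annotated gene.

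**Figure D3:**
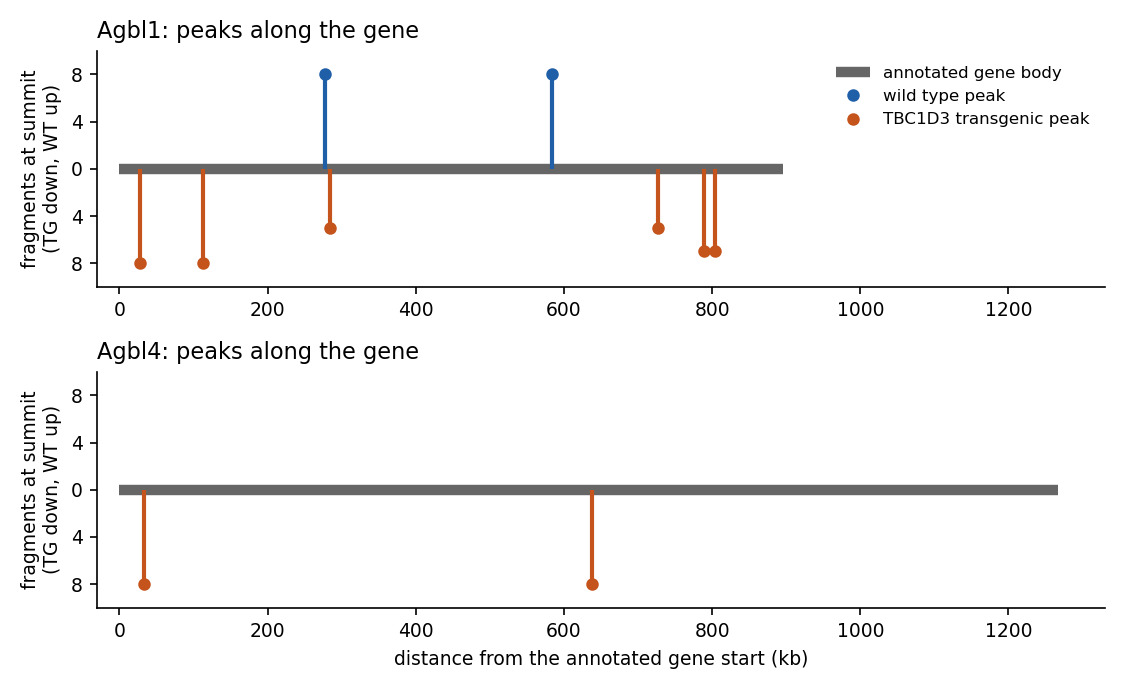
Peaks along Agbl1 (top) and Agbl4 (bottom), with the distance from the annotated gene start on the horizontal axis (kb) and the number of fragments at the summit on the vertical axis, wild type drawn upward and transgenic downward. In Agbl1 the 6 transgenic peaks sit on both sides of a stretch of 443 kb without one, and 1 wild-type and 1 transgenic peak lie side by side at 278 and 284 kb.

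Both transgenic peaks of Agbl4 carried the same values. They lay at chromosome 4, 110431330 to 110431448 and 111035136 to 111035254, which is 33.7 and 637 kb from the gene start. Each held 8 fragments, a fold of 4.53, a −log10 p of 5.99 and a q of 0.0742, and 11.1% of transgenic peaks had a −log10 p as high or higher. Equal values recur because the background was 0.987 at both places and fragments are whole numbers. Each had more fragments than the median transgenic peak, which held 6 and a fold of 3.62. Neither lay in Bend5, the coding gene nested in Agbl4, which held 0 peaks in both libraries. The nearest wild-type peaks were 2930 and 3533 kb away.

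**Figure D4:**
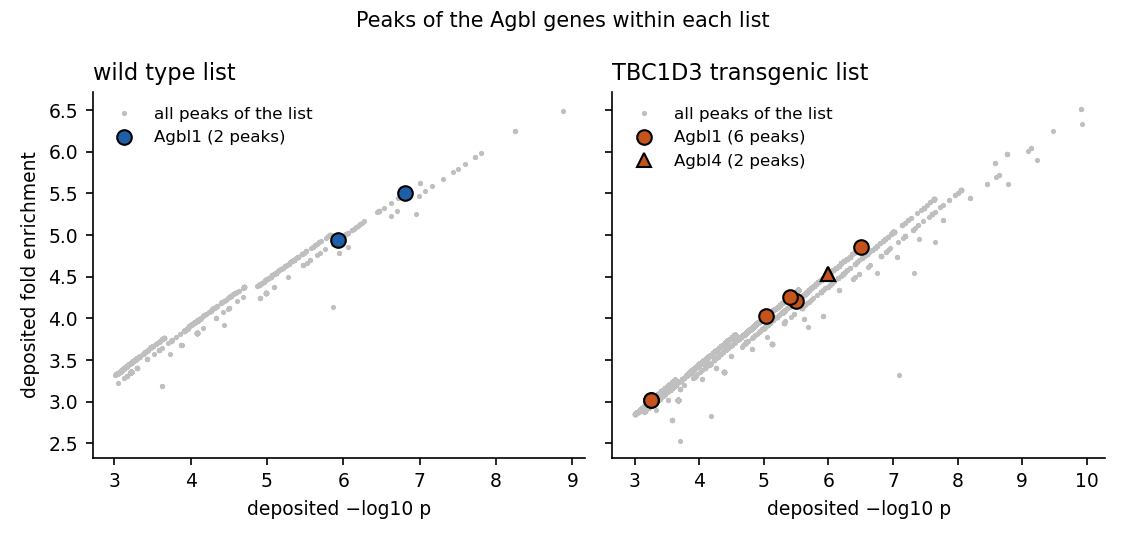
Deposited fold enrichment (vertical axis) against deposited −log10 p (horizontal axis) for all wild-type peaks (left) and all transgenic peaks (right), in grey, with the peaks of Agbl1 as circles and those of Agbl4 as triangles. The wild-type peaks of Agbl1 have folds of 4.95 and 5.50. Its transgenic peaks run from 3.02 to 4.85, with 2 of them on the same point, and both Agbl4 peaks are on the same point at 4.53.

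The peaks of the 2 libraries did not overlap in any Agbl gene. In Agbl1 the first wild-type peak lay 5826 bp before the transgenic peak at 76513615. Its next transgenic neighbours were 165 kb before it and 251 kb before it. The second wild-type peak lay 143 kb from the nearest transgenic peak, the one at 76956520. Across all 743 wild-type peaks, the median distance to the nearest transgenic peak was 93.4 kb, with quartiles of 36.6 and 229 kb. The distance of 5.83 kb or less was met by 55 of the 743 (7.40%), and that of 143 kb or less by 447 (60.2%). One wild-type peak of Agbl1 was therefore nearer to a transgenic peak than the lower quartile of its list and the other was farther than the median. The near pair joined a wild-type peak of 8 fragments to a transgenic peak of 5, the smallest number in that list. With a −log10 p of at least 5 in both lists, the nearest pair in Agbl1 was 165 kb apart.

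**Figure D5:**
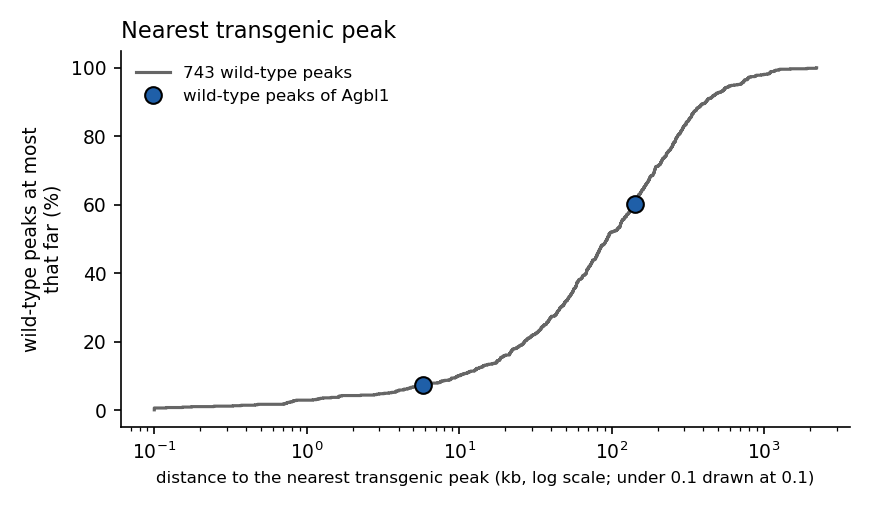
Share of the 743 wild-type peaks (vertical axis, percent) that lie within a given distance of a transgenic peak (horizontal axis, kb, log scale), with the 2 wild-type peaks of Agbl1 as circles. These lie at 5.83 kb (7.40% of the list as near or nearer) and 143 kb (60.2%).

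The choice of the 2 kb flank did not set which peaks were counted. Every peak counted lay inside a gene body. The peaks just outside were 17.8 kb before Agbl1 (wild type, 6 fragments, fold 3.88), 15.0 kb before Agbl4 (transgenic, 6 fragments, fold 3.73) and 80.9 kb before Agbl3 (transgenic, 7 fragments, fold 4.01). On the far side of Agbl1 the next wild-type peak came after 38.0 kb and the next transgenic peak after 681 kb. Of other coding genes, Fnbp4 reached into the 2 kb flank of Agbl2 and Ost4 overlapped the end of Agbl5, and both held 0 peaks.

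Of 63 genes outside the members that build, read or cut the same tubulin modifications or form the microtubule, 0 held a wild-type peak. By an approximate 1-sided 95% limit, 3 divided by the number of genes, this allows a share of up to 4.76%. A transgenic peak was held by 2 of the 63 (3.17%, exact 2-sided binomial 95% interval 0.387 to 11.0). The shares over all protein-coding genes, 0.911% and 5.69%, lie within these limits, so the share of genes with a peak was not shown to differ. That share takes no account of gene length. For these 63 genes the mean densities of their chromosomes give 1.21 wild-type and 10.1 transgenic peaks in all, against 0 and 2 counted. The exact Poisson 95% interval for a count of 2, 0.242 to 7.22, lies below 10.1. The 2 measures thus disagree for the transgenic list, and the difference was not tested. The chromosome mean also counts DNA between genes, so it is not the number that coding genes of like length hold. Of the 7442 protein-coding genes of 18.0 to 80.5 kb, 4.04% held a transgenic peak, a share within the interval around 3.17%. The median over the 63 genes was 0 peaks in each library, as it was over all protein-coding genes, and their median length was 28.4 kb against 17.4 kb. Agtpbp1, the closest relative, held 0 in both, where the mean density gives 0.0391 and 0.348. Among 14 glutamylases and partners of the ligase complex, Ttll11, which extends glutamate chains, held 1 transgenic peak at chromosome 2, 35830549 to 35830703 (9 fragments, fold 4.38, q 0.0742). Among 15 alpha and beta tubulins, Tubb4a held 1 transgenic peak at chromosome 17, 57084892 to 57085002 (7 fragments, fold 3.92, q 0.132), inside a gene of only 7.54 kb. The 3 glycylases, 4 genes of the tyrosination cycle, 3 of acetylation, 8 severing enzymes and 15 microtubule-associated proteins held 0 in both libraries. For the microtubule-associated proteins, the longest of these lists with a median of 107 kb, the mean densities give 0.574 wild-type and 4.96 transgenic peaks. The exact Poisson 95% interval for a count of 0, 0 to 3.69, holds the first of these and lies below the second. That mean again includes DNA between genes. Coding genes of about this length were not compared, and no difference was tested for any of the lists.

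The genes most like Agbl1 in the 2 peak numbers were also long. No other protein-coding gene held exactly 2 wild-type and 6 transgenic peaks, and 5 differed by 1 peak in all. Nell1, a secreted protein of bone formation, held 2 and 7 over 888 kb. Asic2, an acid-sensing ion channel, held 2 and 7 over 1088 kb, and Macrod2, which removes ADP-ribose, 2 and 7 over 1998 kb. Adamtsl1, a matrix protein, held 1 and 6 over 915 kb, and Dab1, the adaptor of reelin signalling in migrating cortical neurons, 1 and 6 over 1125 kb. Nell1 is on chromosome 7 as well, and the others are on chromosomes 2, 4 and 11. This likeness rests on 2 libraries and small counts.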

How the data were processed

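H3K9me2 ChIP and input from 1 wild-type and 1 TBC1D3 transgenic library had been sequenced, and the genotype label set the groups. The authors ran MACS 2.1.0.20150420 on each library with its own input at a p cutoff of 0.001 and fragment extensions of 57 bp (wild type) and 111 bp (transgenic), per the file headers. The submitters' processing notes name BWA and mm10. Per the file headers, 26735120 and 20697113 ChIP tags were used. Pileup, a deposited signal, counts extended fragments, scaled by the authors by 0.951 in the wild type. The deposited fold is a ratio of pileup plus 1 to background plus 1. Values of −log10 p and −log10 q were deposited as MACS gave them. The headers say that q was not calculated, yet values are listed and were used. Scaled pileup cut to a whole number reproduced all 743 and 6253 p-values within 0.01.

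Fragments were recovered by dividing by the scale factor (100% whole within 0.02), and background from pileup and fold. Genes were placed with the RefSeq gene table for GRCm38.p6 (mm10). The table has no exons, so exons, introns and UTRs were not separated. Genes starting under 3 Mb were taken to lie on scaffolds and left out. A peak counted for a gene when at least 1 bp overlapped the body extended by 2 kb. Chromosome means divide its peaks by the length from 3 Mb to its last gene end. Intervals on counts are exact Poisson 95% intervals, and the interval on a share is an exact binomial 95% interval. The upper limit for a share of 0 is 3 divided by the number of genes. Named genes were the members, coding genes overlapping their bodies or flanks, and list genes with a peak. The 5 coding genes nearest to Agbl1 in summed difference of peak numbers were also named. The members and lists were chosen with earlier results of these data known. Counting code was tested on simulated data. Python 3.11.15, pandas 2.3.3 and scipy 1.17.1 were used. Alternatives were a fold or −log10 p of at least 5, an equal list length, merging within 1 kb, other flanks, midpoints and the wild-type scale factor.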

Additional observations from a re-analysis of the deposited data

How the results depend on the processing

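Counts of 5 to 8 fragments per peak and 1 library per genotype limit every value, and no library could be left out. No paired analysis was possible because each genotype has 1 library and the labels carry no shared replicate numbers. The peak numbers of Agbl1 and Agbl4 and the number of member genes with a peak stayed within 1.5 times with a −log10 p of at least 5, merging within 1 kb, flanks of 0, 5 and 10 kb, and peak midpoints. A fold of at least 5, which left 62 wild-type and 166 transgenic peaks, kept 1 wild-type peak in Agbl1 and 0 transgenic peaks in Agbl1 and in Agbl4, so 0 member genes held a transgenic peak. With the transgenic list shortened to 743 peaks, Agbl1 held 1 transgenic peak and Agbl4 still 2. The nearest distance between the libraries in Agbl1, 5.83 kb, became 165 kb with a −log10 p of at least 5 and 251 kb with the shortened list. At a fold of at least 5 no pair was left within Agbl1. The transgenic peak nearest to its remaining wild-type peak then lay outside the gene, 1425 kb away. The nearest distance was also 165 kb when the transgenic pileup was multiplied by the wild-type scale factor before scoring, an alternative chosen after seeing the data. That left 4 transgenic peaks in Agbl1, 2 in Agbl4 and 4701 in the list. In each case the alternative removes weak peaks by construction, among them the transgenic peak of 5 fragments in the near pair.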

Other observations

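The spans between Agbl1 and the coding gene on each side also held more wild-type peaks than the chromosome's mean density gives. For transgenic peaks the count was near that density before Agbl1 and above it after. Noncoding genes within these spans were not set apart. The 355 kb between Klhl25, the coding gene before it, and Agbl1 held 2 wild-type peaks and 1 transgenic peak, where the mean density of chromosome 7 gives 0.127 and 0.797. The 1055 kb between Agbl1 and Ntrk3, the receptor for neurotrophin-3, held 3 and 6, against 0.378 and 2.37. The first of these 6 transgenic peaks lay 681 kb after Agbl1. All 6 were therefore on the Ntrk3 side of the span, and the stretch next to Agbl1 held none. Klhl25 itself held 0 in both, and Ntrk3 held 0 wild-type peaks and 1 transgenic peak over 401 kb. These spans were looked at because they adjoin Agbl1, and no test was made.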
